A study of Homo sapiens with 6 samples.

Results

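The 10 genes described here are the main enzymes that write and erase DNA methylation, together with the hemimethylated DNA reader UHRF1 and its paralog UHRF2. They form a list of named genes, drawn up with earlier results of these data known, and all 10 were found among the 16798 coding genes of the deposited gene table. Total RNA was sequenced from 6 samples of COV434 cells, a human immortalized cell line that the labels call granulosa cells. In the 3 samples of the 4HC group the cells had received 15 µM 4HC, the pharmacologically active form of cyclophosphamide (CTX), for 24 h, and the 3 control samples carry titles that name them as controls and no treatment label. The protocol text on 4HC is repeated on the control samples, so the groups were taken from the titles, and a vehicle for the controls is not given in the sources used here. All 6 samples came from this 1 line, whose genotype is labelled WT in control and CTX in the 4HC group, and the sources used here do not say whether the replicates of a group were grown separately, so that p-values measure only the spread between these samples, which may be technical.

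Expected counts, which RSEM estimates and which need not be whole, added up to between 16133786 and 16702316 per sample, and no library stood apart in depth. Replicate libraries were distinct, since a chi-square of their counts gave 1.7 to 2.46 per gene for each pair, above the 1 that sampling alone would leave. Of 14 granulosa cell markers, 12 were in the table and 4 had enough reads for a test. FOXL2, FSHR, CYP19A1, GATA4, STAR, NR5A1 and INHBB had between 0 and 3 counts in every sample, so most defining granulosa markers were at or near 0 in these cells. INHBA had between 2 and 15 counts and INHA between 8 and 19, while AMH (5.19 CPM in control) and HSD17B1 (14.2 CPM in control) were higher. WNT4 was the marker called among the 4 tested, with 5, 6 and 4 counts in control and 29, 31 and 18 in 4HC.

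Methylation of cytosine in CpG dinucleotides is a chromatin mark that is copied when DNA is replicated. DNMT3A and DNMT3B place it on unmethylated DNA, UHRF1 binds the hemimethylated sites behind the replication fork, and DNMT1 restores the missing methyl group there. TET1, TET2 and TET3 oxidize the methyl group, TDG excises the oxidized bases as well as thymine from G:T mismatches, and MBD4 excises thymine at methylated CpG sites that have deaminated. The mark is erased and rebuilt in the germline, and DNMT1 and UHRF1 are known to be expressed most in dividing cells.

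Of the 10 genes, DNMT1, UHRF2 and MBD4 were higher and TDG was lower after 4HC, with differences of 16.2% or less, and the other 6 did not pass the test. A gene was called when its Benjamini-Hochberg adjusted p-value over all 12368 genes tested with edgeR's quasi-likelihood test was under 0.05. The calls thus numbered 3 of 10 higher, against 19.2% of all genes tested, and 1 of 10 lower, against 17.1%. Taken in either direction, 4 of 10 were called, and 36.4% of all genes tested were. In the same 4 genes the CPM of the groups did not overlap, as in 45.3% of all genes tested, and none of the 10 reached a 2-fold difference, which 1.15% of all genes did together with an unadjusted p-value under 0.05. The median log2 fold change of the 10 genes was 0.05, beside 0.0047 over all genes tested, and their median absolute log2 fold change was 0.12, beside 0.13. The shares called among these genes and the size of their differences were thus near those over all genes tested. CPM here are counts scaled to a fixed library sum after TMM normalization, and all 10 genes had between 164 and 3573 counts in each sample. In these bulk samples fewer cells with a transcript and less of it per cell cannot be told apart.

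Levels of different genes were compared on the length-scaled TPM scale. In control cells the order ran from DNMT1 at a mean of 57.9 TPM to TET1 at 1.78 TPM, a 32.6-fold range. DNMT1 and TDG (mean 54.5 TPM) overlapped in control, where DNMT1 lay between 56.4 and 59.7 TPM and TDG between 53.3 and 56.6 TPM. UHRF1 followed at 37.7 TPM, MBD4 at 26.1 TPM and UHRF2 at 13 TPM, with no overlap between these neighbours. The control values of TET2 (mean 7.46 TPM), TET3 (7.32 TPM), DNMT3A (6.41 TPM) and DNMT3B (6.21 TPM) overlapped from each gene to the next. TET1 stood below all of them in every sample. COV434 cells thus carried mainly mRNA for maintenance and for base excision, with the de novo enzymes and the TET enzymes at lower levels. After 4HC, DNMT1 at 63.5 to 68.3 TPM no longer overlapped with TDG at 48.5 to 51.1 TPM, and the remaining order was the same but for the overlapping neighbours TET2 and TET3, and DNMT3A and DNMT3B, which changed places.

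**Figure D1:**
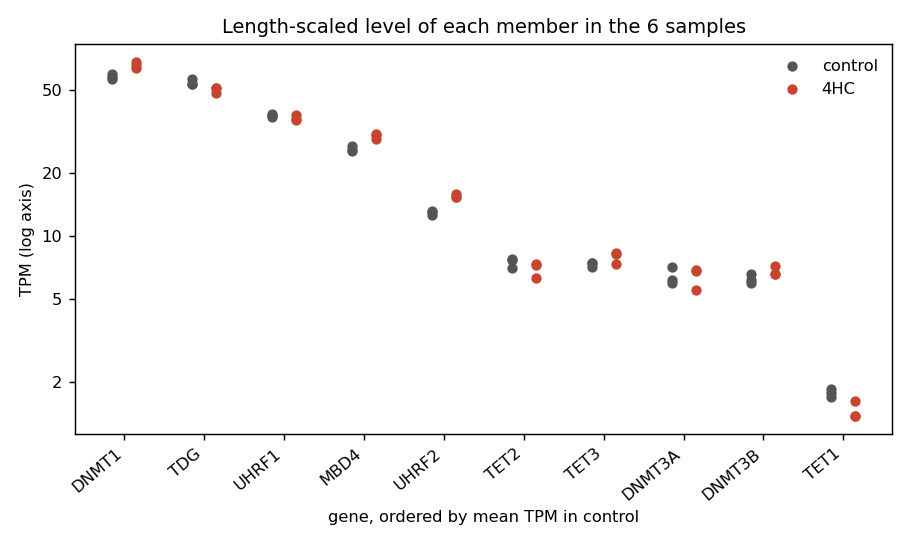
Deposited TPM of the 10 genes (log axis) in the 3 control (grey) and 3 4HC (red) samples, 1 point per sample, ordered by their mean in control. DNMT1 and TDG lead in every sample, and TET1 lies lowest, between 1.38 and 1.86 TPM.

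Among the writers, DNMT1 (NCBI Gene 1786, chr19:10130758-10201197 of GRCh38), the maintenance methyltransferase, measured 178, 183 and 188 CPM in the control samples and 216, 203 and 210 CPM in the 4HC samples. All 3 4HC samples lay above all 3 controls. The mean rose from 183 ± 4.73 to 210 ± 6.18 CPM (SD, n = 3 per group), 14.5% higher, and the log2 fold change was 0.19 (with a standard error of 0.036, 95% interval 0.12 to 0.27, adjusted p = 1.84e-05 by edgeR). This was the smallest adjusted p-value among the 10 genes. In the GENCODE 29 annotation 83 exonic bases of DNMT1 are shared with its neighbour S1PR2, a small part of the 9796 exonic bases of DNMT1.

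The de novo methyltransferases did not pass the test. DNMT3B (NCBI Gene 1789, chr20:32762385-32809357) measured 14.7, 16.1 and 14.3 CPM in control and 17.2, 16.3 and 15.9 CPM in 4HC, where the lowest 4HC sample lay below the highest control (log2 fold change 0.13, 95% interval -0.03 to 0.30, adjusted p = 0.21 by edgeR). DNMT3A (NCBI Gene 1788, chr2:25222677-25356979) measured 29.9, 32.5 and 28.9 CPM in control and 33.7, 28.5 and 32.1 CPM in 4HC. Its groups were interleaved, and its log2 fold change of 0.05 had a 95% interval of -0.08 to 0.18 (adjusted p = 0.595 by edgeR). The interval corresponds to a level between 0.945-fold and 1.13-fold of control, and the direction of DNMT3A turned under 3 of 15 alternative settings.

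UHRF1 and UHRF2, which share their domain layout, gave different results. UHRF2 (NCBI Gene 115426, chr9:6413148-6507056), which cannot replace UHRF1 in maintenance methylation and also binds 5-hydroxymethylcytosine, measured 25.3, 27.1 and 25.4 CPM in control and 30.6, 29.6 and 30.2 CPM in 4HC. The 4HC samples were all higher, and the mean rose from 25.9 ± 1.05 to 30.1 ± 0.502 CPM (SD, n = 3), 16.2% higher. Its log2 fold change of 0.22 (95% interval 0.09 to 0.34, adjusted p = 0.00473 by edgeR) was the largest in absolute size among the 10 genes. UHRF1 (NCBI Gene 29128, chr19:4903080-4973238), the reader that brings DNMT1 to replicated DNA, measured 85.8, 88.9 and 86.3 CPM in control and 87.7, 83.7 and 84.5 CPM in 4HC. These values overlapped, and the log2 fold change of -0.03 had a 95% interval of -0.11 to 0.06 (adjusted p = 0.655 by edgeR), which corresponds to between 0.924-fold and 1.04-fold of control.

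**Figure D2:**
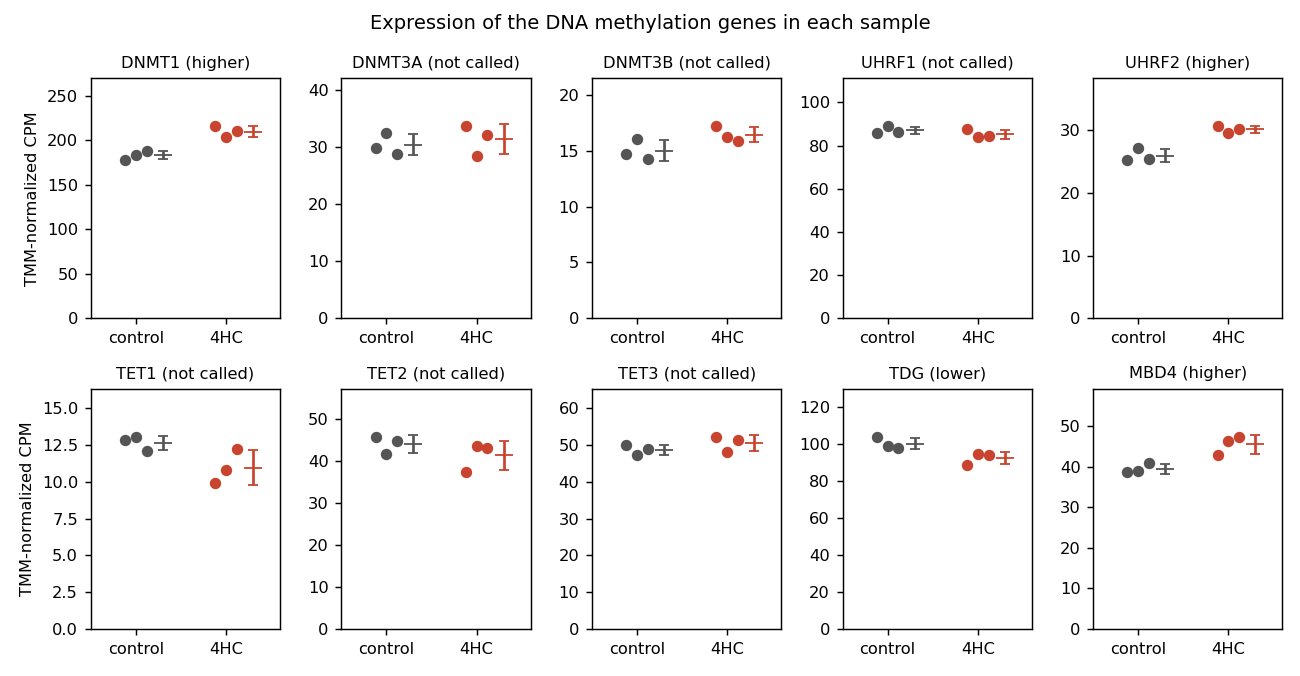
TMM-normalized CPM of each of the 10 genes in the 3 control (grey) and 3 4HC (red) samples, 1 point per sample with the mean and SD beside them and every axis starting at 0. Titles give the call at an adjusted p-value under 0.05. The groups separate in DNMT1, UHRF2, TDG and MBD4 and overlap in the other 6 genes.

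Among the erasers, both thymine DNA glycosylases were called, in opposite directions. MBD4 (NCBI Gene 8930, chr3:129430947-129440029) measured 38.7, 38.8 and 40.8 CPM in control and 42.9, 46.3 and 47.3 CPM in 4HC. The groups did not overlap, and the mean rose from 39.5 ± 1.2 to 45.5 ± 2.32 CPM (SD, n = 3), 15.2% higher, and the log2 fold change was 0.20 (standard error of 0.055, adjusted p = 0.00263 by edgeR). MBD4 shares 144 exonic bases of its 3356 with IFT122 on the other strand, and whether the counting used strand is not given in the sources used here. TDG (NCBI Gene 6996, chr12:103965842-103988874) measured 104, 99 and 98 CPM in control and 89, 94.8 and 94.1 CPM in 4HC. Its 4HC samples were all lower, and the mean fell from 100.3 ± 3.13 to 92.6 ± 3.2 CPM (SD, n = 3), and the log2 fold change was -0.11 (95% interval -0.20 to -0.03, adjusted p = 0.0301 by edgeR). The call on TDG rested on single samples, since its adjusted p-value by edgeR was 0.154 without control replicate 1 and 0.127 without 4HC replicate 1. It was also lost with DESeq2 (adjusted p = 0.0578), and over 15 alternative settings its adjusted p-value ranged from 0.0226 to 0.154. GENCODE 29 lists pseudogenes named after TDG (TDGP1), UHRF2 (UHRF2P1) and TET1 (TET1P1), with which reads of these 3 genes could have been shared.

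Of the 3 TET dioxygenases none was called. TET1 (NCBI Gene 80312, chr10:68560337-68700794) measured 12.8, 13 and 12.1 CPM in control and 9.9, 10.8 and 12.2 CPM in 4HC. The highest 4HC sample lay just above the lowest control, and the log2 fold change of -0.21 (95% interval -0.40 to -0.01, unadjusted p = 0.0356) did not pass the test (adjusted p = 0.0856 by edgeR). Without 4HC replicate 3 it was -0.29 with an adjusted p-value of 0.0254, and over 15 alternative settings the adjusted p-value ranged from 0.0254 to 0.32. TET1 was the least abundant of the 10 genes, with 164 to 212 counts per sample, and its interval was the widest of the 10. TET2 (NCBI Gene 54790, chr4:105137271-105279803) measured 45.7, 41.6 and 44.8 CPM in control and 37.2, 43.6 and 43.1 CPM in 4HC, with overlap (log2 fold change -0.09, adjusted p = 0.221 by edgeR). TET3 (NCBI Gene 200424, chr2:73982036-74135640) measured 49.9, 47.3 and 49 CPM in control and 52.1, 48.2 and 51.4 CPM in 4HC, also with overlap (log2 fold change 0.05, adjusted p = 0.444 by edgeR).

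The make-up of the machinery was also described by ratios of TPM within each sample, to which no test was applied. The ratio of UHRF1 to UHRF2 was 2.93, 2.94 and 2.84 in control and 2.4, 2.34 and 2.37 in 4HC, with no overlap. The summed TPM of the 3 DNMT genes over that of the 3 TET genes was 4.03, 4.48 and 4.27 in control and 5.18, 4.71 and 4.62 in 4HC. These ratios did not overlap between groups, and most of the DNMT sum was DNMT1. The ratio of DNMT3B to DNMT3A, 0.973 ± 0.0432 in control and 1.07 ± 0.124 in 4HC (SD, n = 3), did overlap. Ratios of DNMT1 to UHRF1 and of MBD4 to TDG were added after the values were seen. DNMT1 to UHRF1 went from 1.54 ± 0.0429 to 1.79 ± 0.0225, and MBD4 to TDG from 0.479 ± 0.0226 to 0.599 ± 0.00374 (SD, n = 3), both without overlap. For MBD4 to TDG this had to be so, since MBD4 was higher and TDG lower in every 4HC sample, and the ratio adds no separate result. UHRF1 itself overlapped between groups. The ratio of DNMT1 to UHRF1 therefore largely repeats the difference of DNMT1, and that of UHRF1 to UHRF2 the difference of UHRF2.

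RSEM, named in the processing notes, divides the reads of a gene among its transcripts, and the deposited transcript table held 59 transcripts of the 10 genes. Of these 39 could be tested and 0 were called by edgeR, against 1.29% of the 42216 transcripts tested, of which 0.706% were higher and 0.587% lower. At an unadjusted p-value under 0.05 there were 3 of the 39. The biological coefficient of variation was 0.724 for transcripts against 0.0277 for genes, and the count of 0 does not show that these transcripts did not differ. Shares of each gene's reads were described for the 22 transcripts with a mean share of at least 10%.

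DNMT1 reads went mainly to NM_001379, with a mean share of 66.8% over the 6 samples, and to NM_001130823, with 22.5%. The share of reads given to NM_001130823 lay between 21.9% and 23.2% in the control samples and between 22.1% and 22.7% in the 4HC samples, so the make-up of DNMT1 overlapped between groups. The expected counts of this transcript were 664, 652 and 723 in control and 811, 729 and 765 in 4HC.

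DNMT3B reads went mainly to transcripts without exons 21 and 22, which encode part of the catalytic domain. NM_175849 took a mean share of 63.6%, NM_001207055 took 19.9% and NM_175848, which keeps both exons and lacks exon 10, took 11.5%. NM_006892, the full-length form with all 3 exons, had a mean share of 0.817%, which came from control replicate 1 alone (4.9%). The share of NM_001207055 was 0 in control replicate 1 and lay between 14.5% and 32.4% in the other samples. Both exons are shown because they separate the forms that lack part of the catalytic domain from those that keep it whole. Exon 21 lies at chr20:32805338-32805407 and exon 22 at chr20:32806209-32806327 of GRCh38 (GENCODE 29, plus strand), and together they hold 189 bases, or 63 codons.
DNMT3B exon 21: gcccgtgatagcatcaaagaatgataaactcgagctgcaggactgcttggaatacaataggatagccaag
DNMT3B exon 22: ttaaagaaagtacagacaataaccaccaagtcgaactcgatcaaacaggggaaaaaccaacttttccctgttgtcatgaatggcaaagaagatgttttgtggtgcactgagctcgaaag
Transcripts without these exons took 72.3%, 90.2% and 87.6% of the DNMT3B reads in control and 83.8%, 85.7% and 87.4% in 4HC. Transcripts with them took 14.9%, 9.82% and 12.4% in control and 9.84%, 14.3% and 12.6% in 4HC. These shares overlapped between groups, and they rested on 25.6 to 37.7 expected counts per sample for the forms with both exons. The 2 remaining transcripts, not sorted by these exons, took 12.7% in control replicate 1, 6.32% in 4HC replicate 1 and 0 elsewhere. As background, forms without both exons are common in differentiated cells and tumour lines and are held to have little or no catalytic activity of their own.

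In TET3 the share of XM_024452747 was 30.6%, 33.4% and 34.3% in control and 42.7%, 41.8% and 45.8% in 4HC. It was 1 of the 22 shares, and the only one, without overlap between groups, against 12% of the 21263 transcripts with such a share. The difference of 10.7 percentage points gave a two-sided exact permutation p of 0.1, the smallest that 3 samples against 3 allow. The shares of the other 2 main TET3 transcripts, NM_001287491 and NM_001366022, overlapped. TET1 showed how uncertain the division can be, since XM_017016689 was given 71.1, 0 and 69.4 expected counts in control and was listed at 0 in each 4HC sample, while the share of XM_011540207 ranged from 13.2% to 72.8% over the 6 samples.

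**Figure D3:**
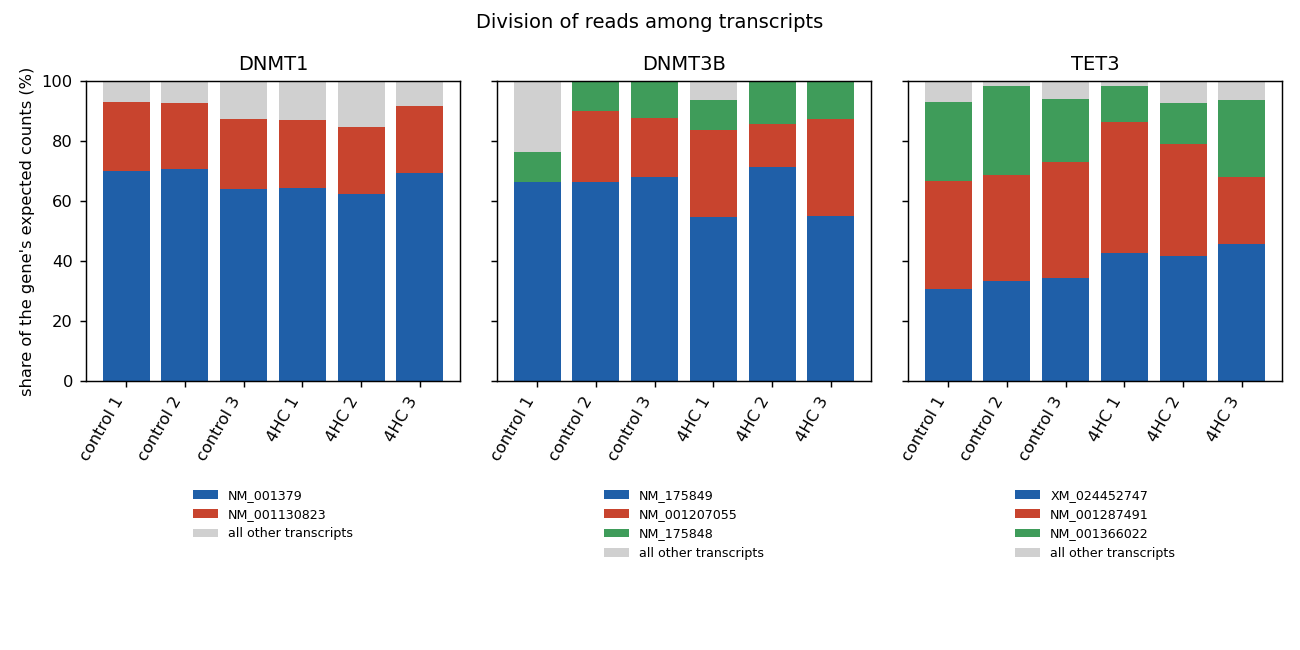
Share of the expected counts of DNMT1, DNMT3B and TET3 (percent, stacked to 100) given to each transcript with a mean share of at least 10% in each of the 6 samples, with all other transcripts in light grey. NM_175849 leads in DNMT3B in every sample, and the share of XM_024452747 in TET3 is 32.8% on average in control and 43.4% in 4HC.

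The RefSeq table on GRCh38.p14 gave 21 promoters for the 10 genes. Over the 250 bases before each start the members had from 3 CpG dinucleotides (DNMT3B) to 41 (1 of the 3 promoters of UHRF1), beside a median of 11 over all 35116 promoters. The only DNMT3B window, chr20:32779602-32779851, lies inside the gene, whose start in the deposited table is 32762385. All windows of UHRF1, whose deposited start is 4903080, also lie inside their gene. So do those of DNMT1, DNMT3A, TET2 and TET3 and some of TET1. The bases before these gene starts were not examined, so neither the CpG counts nor the letters below describe them. UHRF1 and UHRF2 are shown as the paralogs with different results, each with the stretch of its first promoter that no GENCODE 29 exon covers and with CpG dinucleotides in capitals. The UHRF1 stretch is chr19:4909251-4909429 (plus strand, ending 71 bases before the start) and the UHRF2 stretch is chr9:6412949-6413150 (plus strand, ending 48 bases before the start).
UHRF1: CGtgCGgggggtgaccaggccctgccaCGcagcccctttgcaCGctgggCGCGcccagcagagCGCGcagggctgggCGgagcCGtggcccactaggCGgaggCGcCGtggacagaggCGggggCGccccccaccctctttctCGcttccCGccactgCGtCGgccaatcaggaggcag
UHRF2: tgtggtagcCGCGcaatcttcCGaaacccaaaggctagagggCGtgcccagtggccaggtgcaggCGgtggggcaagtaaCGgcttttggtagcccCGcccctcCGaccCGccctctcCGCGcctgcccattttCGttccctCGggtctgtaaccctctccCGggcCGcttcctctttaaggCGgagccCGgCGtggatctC
The UHRF1 stretch held 19 CpG dinucleotides in 179 bases and that of UHRF2 18 in 202 bases. The last capital C of the UHRF2 stretch belongs to a CpG cut by its end and is not counted. E2F letters, searched as TTTCCCGC, TTTCGCGC, TTTGGCGC or TTTGCCGC on both strands, were in 2.79% of all promoters and in 2 of the 21 promoters of the 10 genes. Both belong to UHRF1, with TTTCGCGC starting 160 bases before the start of its second promoter and GCGGGAAA, on the minus strand, starting 14 bases before that of its first, between the stretch shown and the start. The GC box letters GGGCGG, on either strand, were in 12 of the 21 promoters, those of UHRF1 and UHRF2 included, and in 42.6% of all promoters. Some of the 21 windows overlap, as in DNMT3A, so that the same match can count more than once. Counted by gene, 6 of the 10 had a match in any promoter. Such matches describe the letters in these windows only.

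Among the partners of maintenance methylation, PCNA, LIG1, PCLAF and HELLS had larger log2 fold changes than any of the 10 genes. Of 9 partners tested, 4 were higher and 3 were lower in 4HC, beside 19.2% higher and 17.1% lower over all genes tested, and their log2 fold changes had a median of 0.13, as did those of the 5 writers. PCNA, the sliding clamp that holds DNMT1 at the replication fork, rose from 275 ± 5.97 to 567 ± 6.82 CPM (SD, n = 3), 1.04 higher on the log2 scale (adjusted p = 6.87e-32 by edgeR). LIG1, the DNA ligase that draws UHRF1 to the fork, rose by 0.70 on the log2 scale, and PCLAF, the PCNA-associated factor that UHRF1 ubiquitinates, by 0.63. HELLS, the remodeller that opens heterochromatin for methylation, rose by 0.46. CDCA7, which recruits HELLS, fell by 0.24 on the log2 scale, as did ZBTB24, the activator of CDCA7, by 0.24, and USP7, the deubiquitinase that stabilizes DNMT1 and UHRF1, by 0.17. Next to these values the log2 fold change of DNMT1 was 0.19 and that of UHRF1 -0.03. DMAP1 and CDCA7L did not pass the test.

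**Figure D4:**
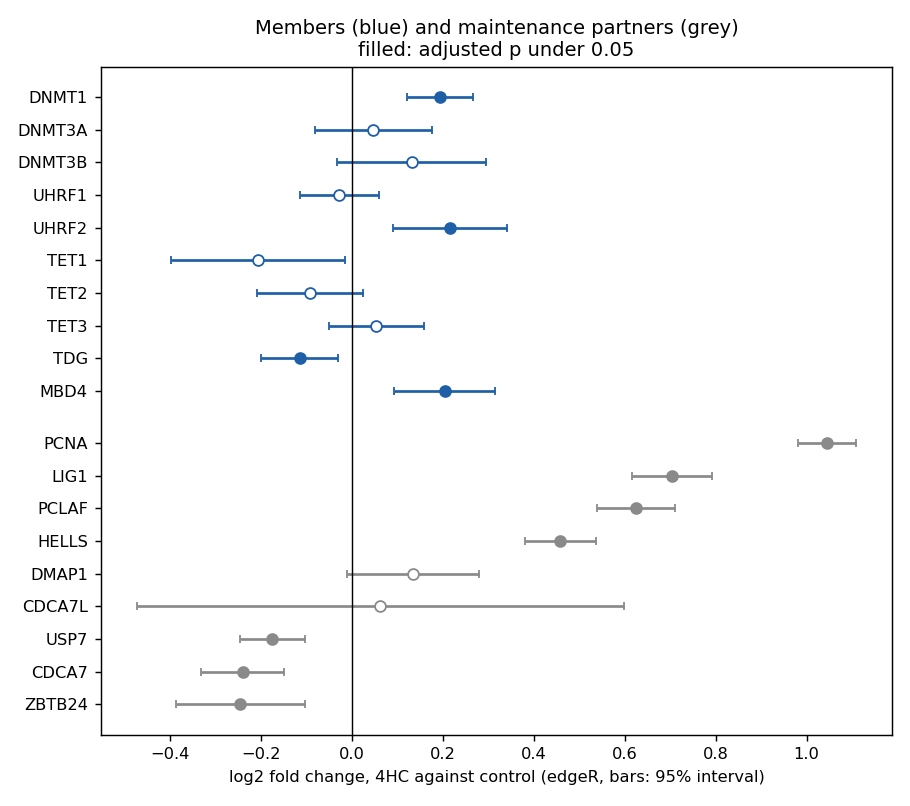
Log2 fold change between 4HC and control (x axis) with its 95% interval for the 10 genes (blue) and the 9 tested partners of maintenance methylation (grey). Filled points have an adjusted p-value under 0.05. All 10 genes lie within 0.22 of 0, while PCNA reaches 1.04.

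Several of these partners are also replication genes, and DNMT1 and UHRF1 are known to be expressed most in S phase. Of 15 S-phase genes, 10 were higher and 1 was lower after 4HC, beside 19.2% higher and 17.1% lower over all genes tested, with a median log2 fold change of 0.21. CDT1, which licenses origins, RRM2, a subunit of ribonucleotide reductase, cyclin CCNE2 and thymidylate synthase TYMS rose by 0.97, 0.84, 0.60 and 0.56 on the log2 scale, and MCM6, a helicase subunit, fell by 0.29. Of the 200 hallmark E2F targets in the deposited annotation, which include DNMT1 and no other of the 10 genes, 96 were higher and 36 were lower, against the same shares over all genes, with a median of 0.09. These values moved in the same samples as DNMT1, and their part in its difference was not tested.

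Of 17 tested partners of demethylation, 4 were higher and 4 were lower, and their log2 fold changes had a median of 0.01. Among all genes tested 36.4% were called in either direction, so this share was not far from the background. CXXC5, a CXXC zinc finger protein that binds TET2, GADD45A, a stress gene tied to TET1 and TDG, and IDH2, the mitochondrial isocitrate dehydrogenase, rose by 0.55, 0.35 and 0.29 on the log2 scale. NEIL2, a glycosylase that works with TDG, fell by 0.43. IDH1, the cytosolic isocitrate dehydrogenase whose product 2-oxoglutarate is the cosubstrate of the TET enzymes, fell by 0.34 on the log2 scale, and APEX1, the nuclease that follows TDG, by 0.17. OGT, the glycosyltransferase bound by TET2 and TET3, fell by 0.08, with groups that overlapped (adjusted p = 0.0455 by edgeR). The 2 isocitrate dehydrogenases thus differed in opposite directions, IDH1 from 67.6 ± 2.53 to 53.4 ± 0.768 CPM and IDH2 from 139 ± 2.81 to 170 ± 1.59 CPM (SD, n = 3).

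In the methyl donor cycle, which makes S-adenosylmethionine for the DNMT enzymes, 3 of 12 tested genes were higher and 2 were lower (median log2 fold change 0.02), a share called near the 36.4% over all genes tested. SHMT1 and SHMT2, which feed the folate cycle, rose by 0.33 and 0.11 on the log2 scale, and AHCY, which removes S-adenosylhomocysteine, the product that inhibits methyltransferases, rose by 0.19. MAT2A, which makes S-adenosylmethionine, fell by 0.17, and MTRR, which keeps methionine synthase active, fell by 0.14. In MTRR the groups overlapped (adjusted p = 0.0309 by edgeR). Among 7 methyl-CpG readers, ZBTB4 was higher by 0.11 on the log2 scale, with groups that overlapped (adjusted p = 0.043 by edgeR), and the other 6 did not pass the test.

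Genes that DNA methylation is known to keep silent or imprinted were listed as context. Methylation itself was not measured here, and these values do not stand in for it. Of 17 germline genes, 8 were in the table and 2 could be tested. MAGEA1 rose from 5.52 ± 0.978 to 7.08 ± 0.783 CPM and MAGEA4 fell from 463 ± 8.31 to 394 ± 6.48 CPM (SD, n = 3), and both belong to the MAGE family of the X chromosome, among whose similar genes reads could have been split. The groups overlapped in MAGEA1 (adjusted p = 0.0319 by edgeR) and did not in MAGEA4 (adjusted p = 3.03e-08 by edgeR). Both were already expressed in control, so neither tells whether silencing changed. DDX4, SYCP3, GTSF1, STK31, MAGEA3 and MAGEC1 had between 0 and 6 counts in every sample of either group. Of 8 imprinted genes tested, 4 were higher and 2 were lower, beside 19.2% and 17.1% over all genes tested. The growth factor gene IGF2 rose from 4.79 ± 0.358 to 8.1 ± 0.429 CPM, 0.76 higher on the log2 scale (adjusted p = 3.56e-06 by edgeR), the zinc finger genes PLAGL1 and PEG3 rose by 0.95 and 0.40 on the log2 scale, and NDN rose by 0.88. PLAGL1 and NDN had under 2 CPM in both groups. PEG10, a gene derived from a retrotransposon, fell by 0.52 and SNRPN by 0.11.

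For the 3 genes with the largest absolute log2 fold change, the genes with the most similar values over the 6 samples were sought among 10271 genes with a mean of at least 5 CPM. Likeness was the mean absolute difference of log2 CPM after each gene was centred on its own mean. UHRF2 was nearest to CDCA3 (0.0111), TXLNA and NRSN2, MBD4 to FBXO5 (0.0137), TCEANC2 and RFC1, and TET1 to TRIQK (0.0249), KIF3A and TUBE1. The median distance over all genes was 0.125 for UHRF2, 0.123 for MBD4 and 0.134 for TET1. The nearest of 10271 genes must lie below this median, so the comparison adds no result about shared regulation.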

How the data were processed

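Processed tables of 6 samples, 3 control and 3 4HC, were used. The submitters' processing notes name HISAT2, Bowtie2, RSEM 1.3.1, DESeq2 and GRCh38.p13, and the labels name SOAPnuke for read filtering. The authors deposited expected counts per gene and per transcript without normalization, of which 85.5% were exactly whole as written in the table for genes and 38.9% for transcripts. The authors also deposited TPM, which accounts for transcript length and sums to the same total in every sample, and FPKM, which accounts for length and depth. The deposited fold changes, p-values and q-values of the authors' own comparison were not used, nor was a second gene table with the same values.

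After rounding of the expected counts, edgeR 4.0.16 (R 4.3.3) was used with TMM scaling and filterByExpr, and the quasi-likelihood model had no term beside the condition. Adjusted p-values are those of Benjamini and Hochberg over all 12368 genes or 42216 transcripts tested. Each library held between 16133786 and 16702316 expected counts. The test was first tested on simulated data. Strand and overlapping exons came from GENCODE 29, and promoters from RefSeq.

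The members and lists were chosen with earlier results of these data known. The genes named were all members, up to 4 called genes of each list with the largest absolute log2 fold change, and the genes nearest to 3 members. Other genes named, such as DMAP1 and CDCA7L, were chosen after their values were seen. Some items are not reported here. Alternatives were DESeq2 1.42.0, its size factors in edgeR, library size scaling, other filters, the replicate number as a block, limma 3.58.1 on log2 TPM or FPKM with a pseudocount of 1 or, for TPM, 0.1, and leaving out each sample in turn. Python 3 scripts with pandas and matplotlib drew the figures.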

Additional observations from a re-analysis of the deposited data

How the results depend on the processing

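The calls on DNMT1, UHRF2 and MBD4 held in all 15 alternatives, with log2 fold changes of 0.17 to 0.22, 0.20 to 0.26 and 0.18 to 0.24. UHRF2 came closest to losing its call, with an adjusted p-value of 0.0485 with DESeq2. The largest adjusted p-value was 0.0249 with DESeq2 for MBD4 and 0.00686 with limma on log2(TPM + 1) for DNMT1. The fall of TDG was called in 7 of 15, with log2 fold changes of -0.13 to -0.09 and adjusted p-values of 0.0226 to 0.154. The number of members called lower was therefore 0 with DESeq2, with library size as the only scaling, with the replicate block and with limma on log2(TPM + 1), log2(TPM + 0.1) or log2(FPKM + 1). It ranged from 0 to 2 when a sample was left out, with 0 without control replicate 1 or 4HC replicate 1, and 2 without 4HC replicate 3, where TET1 was called too. DNMT3A turned direction, to a log2 fold change of -0.0036 with limma on log2(TPM + 1), -0.0045 on log2(TPM + 0.1) and -0.0099 without 4HC replicate 1, with a range of -0.0099 to 0.11 when a sample was left out, and was called in none. Over all genes, limma on log2(FPKM + 1) called 1343 lower in place of 2118. With the replicate block 2259 genes were called higher and 1954 lower, beside 2379 and 2118, and 3 members higher. No pairing by replicate number was seen, since the deviations of same-numbered samples had correlations of 0.00866, 0.0694 and 0.0302. Whether they were grown or handled together is not given in the sources used here. Groups of 3 samples were not searched for outlying samples.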
